A study of Mus musculus with 4 samples.

Results

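Peaks listed in the NKT library and not in the PLZF-transgenic library were described here by place, neighbouring genes and promoter sequence. The NKT library was a streptavidin ChIP from thymocytes of PLZF tg/BirA tg/Valpha14 tg mice, and the Tg thy library a streptavidin ChIP from thymocytes of PLZF tg/BirA tg mice, both on the C57BL/6 background. Mice of both groups thus carried the PLZF and BirA transgenes, and the Valpha14 transgene was the stated difference. BirA is a bacterial ligase that attaches biotin to its target, and streptavidin beads then pull down the biotin-labelled protein with its DNA. Both samples are labelled as thymocytes, with no promoter named for any transgene and no sort for natural killer T cells, so NKT names a library here and not a purified cell type. Each group had 1 ChIP library, the sequencing depth is unknown, and no replicate error, test or p-value between the libraries could be had. Input libraries and pull-downs lacking transgenic PLZF were not analysed here, so a peak need not be a PLZF site.

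A member, called an NKT-only peak below, is a peak of the NKT list with no Tg thy peak within 1 kb on either side. Mitochondrial DNA, the Y chromosome and 5 further stretches were left out by the rule. Of 4246 NKT peaks, 4195 lay outside these places, and 1447 of them were NKT-only, 34.5% of the 4195. The other 2748 had a Tg thy peak within 1 kb. With the lists swapped, 2541 of 5180 Tg thy peaks had no NKT peak within 1 kb (49.1%). The members were thus chosen by the presence of a peak in 1 list and its absence from the other, so that contrast is no finding, and scores and widths are given as a description.

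PLZF, encoded by Zbtb16, is a BTB zinc finger transcription factor that gives invariant natural killer T cells their innate-like effector program. These cells carry a T cell receptor alpha chain built from the Valpha14 segment, recognise lipids on CD1d, and need signals from SLAM family receptors passed on by the adaptor SAP to mature in the thymus. The factor recruits co-repressors to DNA, and its peaks may lie at promoters, inside genes or far from them.

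For members that overlap an annotated promoter, 7 promoter windows are printed. The peaks covered from 85 of the 300 bases (Irf9) to all 300 (Dhx8), so the printed letters are not all peak DNA. A RefSeq promoter window runs from 250 bases before to 50 bases after a gene's start. The windows of the 5 highest-scoring such members follow, then those of Irf9 and Sla2, which were chosen after their values were seen because of their roles in immune cells. Sequences are from RefSeq (GRCm38.p6, the assembly that mm10 names), 5′ to 3′ on the gene's strand. Capitals mark matches on either strand to 8 short motifs that are spelled out with the motif counts further on.
Rangap1, chr15:81729870-81730169, minus strand: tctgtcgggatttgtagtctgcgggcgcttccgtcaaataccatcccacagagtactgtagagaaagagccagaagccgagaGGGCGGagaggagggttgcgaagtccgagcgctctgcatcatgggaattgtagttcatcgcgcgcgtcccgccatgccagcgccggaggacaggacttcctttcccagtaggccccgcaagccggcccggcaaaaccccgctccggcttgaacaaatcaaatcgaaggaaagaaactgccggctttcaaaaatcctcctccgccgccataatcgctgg
Tmco1, chr1:167308420-167308719, plus strand: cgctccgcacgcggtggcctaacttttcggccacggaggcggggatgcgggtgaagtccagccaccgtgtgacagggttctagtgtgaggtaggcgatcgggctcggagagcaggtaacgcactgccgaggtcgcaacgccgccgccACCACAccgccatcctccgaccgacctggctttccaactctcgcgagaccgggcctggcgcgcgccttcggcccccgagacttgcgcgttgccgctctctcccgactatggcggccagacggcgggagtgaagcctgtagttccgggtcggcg
N4bp2l2, chr5:150665563-150665862, minus strand: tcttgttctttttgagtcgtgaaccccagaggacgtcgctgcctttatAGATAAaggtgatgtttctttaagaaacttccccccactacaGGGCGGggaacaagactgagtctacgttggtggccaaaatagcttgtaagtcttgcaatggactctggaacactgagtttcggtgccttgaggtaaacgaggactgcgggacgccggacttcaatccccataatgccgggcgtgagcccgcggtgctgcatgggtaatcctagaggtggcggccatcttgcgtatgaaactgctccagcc
Dhx8, chr11:101732706-101733005, plus strand: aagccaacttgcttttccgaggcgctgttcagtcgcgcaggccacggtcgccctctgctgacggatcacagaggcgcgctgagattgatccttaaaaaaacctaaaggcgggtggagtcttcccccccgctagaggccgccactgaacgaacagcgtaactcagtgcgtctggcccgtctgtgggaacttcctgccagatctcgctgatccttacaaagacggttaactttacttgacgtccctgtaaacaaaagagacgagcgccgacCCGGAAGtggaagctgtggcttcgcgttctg
Psmg3, chr5:139826845-139827144, minus strand: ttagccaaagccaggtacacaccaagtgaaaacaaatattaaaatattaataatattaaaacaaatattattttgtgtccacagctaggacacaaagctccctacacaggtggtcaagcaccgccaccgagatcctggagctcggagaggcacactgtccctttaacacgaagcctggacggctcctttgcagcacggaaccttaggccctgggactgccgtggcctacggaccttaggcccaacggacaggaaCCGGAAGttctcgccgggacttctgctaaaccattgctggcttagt
Irf9, chr14:55603735-55604034, plus strand: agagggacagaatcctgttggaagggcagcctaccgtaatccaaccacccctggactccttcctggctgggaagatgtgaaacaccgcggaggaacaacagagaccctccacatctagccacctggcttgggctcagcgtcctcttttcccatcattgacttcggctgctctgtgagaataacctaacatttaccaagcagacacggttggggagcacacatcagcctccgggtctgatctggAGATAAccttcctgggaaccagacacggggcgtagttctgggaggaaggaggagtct
Sla2, chr2:156887172-156887471, minus strand: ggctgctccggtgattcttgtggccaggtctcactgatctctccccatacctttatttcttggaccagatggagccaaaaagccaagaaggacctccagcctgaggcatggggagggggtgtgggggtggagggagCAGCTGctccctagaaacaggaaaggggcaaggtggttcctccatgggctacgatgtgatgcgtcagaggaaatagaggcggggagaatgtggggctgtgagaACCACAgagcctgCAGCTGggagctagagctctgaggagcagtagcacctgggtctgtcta

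The peak over the Rangap1 window scored 169.7 (rank 668 in the NKT list), covered 216 of the 300 bases and lay 127.8 kb from the nearest Tg thy peak. Rangap1 encodes the activator of the Ran GTPase that drives nuclear transport. The Tmco1 peak scored 160.6, the N4bp2l2 peak 150.1, the Dhx8 peak 148.2 and the Psmg3 peak 137.6, and their nearest Tg thy peaks lay 62.72, 66.34, 73.62 and 49.47 kb away. Dhx8 encodes a helicase of splicing and Psmg3 a chaperone of proteasome assembly. The Dhx8 peak spanned its whole window, which holds the ETS letters just after the start, as the Psmg3 window does.

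The Irf9 peak scored 134.2 and lay 43.5 kb from the nearest Tg thy peak. IRF9 is the DNA-binding part of the complex that answers type I interferon. The Sla2 peak scored 129.5, and a Tg thy peak of score 50.63, close to the lowest score listed, lay 3.799 kb away. Sla2 encodes an adaptor that restrains T cell receptor signalling, and its window holds the E protein letters at 2 places and the RUNX letters at 1.

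Most NKT-only peaks were weak and narrow. Their deposited score had a median of 57.3 (quartiles 52.58 to 69.04, highest 434.3), against 98.66 (64.31 to 160.2, highest 3104) for the other NKT peaks. The score is the value the authors deposited with each peak, with no stated scale, and the lowest in the list is 50.02. Within 10 units of that floor, below 60, lay 828 of 1447 NKT-only peaks (57.22%, exact 95% interval 54.63 to 59.79%) and 546 of 2748 other NKT peaks (19.87%, 18.39 to 21.41%). At or above 100 were 106 NKT-only peaks (7.326%) and 1356 other NKT peaks (49.34%). A peak missing from the Tg thy list can have missed its threshold narrowly, so absence there does not show absence of binding.

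Widths ran the same way. The median width was 174 bp (quartiles 157 to 211 bp) for NKT-only peaks and 276 bp (197 to 392 bp) for the other NKT peaks. In the swapped comparison, Tg thy peaks without an NKT peak had a median score of 84.09 and a median width of 325 bp, and all Tg thy peaks 110.8 and 387 bp. Only 18 NKT-only peaks were 800 bp or wider, and 11 of these carried scores below 80. Of the 18 wide peaks, 11 lay in 1 stretch of chromosome 1 around Mroh2a, Hjurp and Trpm8, which is described with the groups of peaks below.

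**Figure D1:**
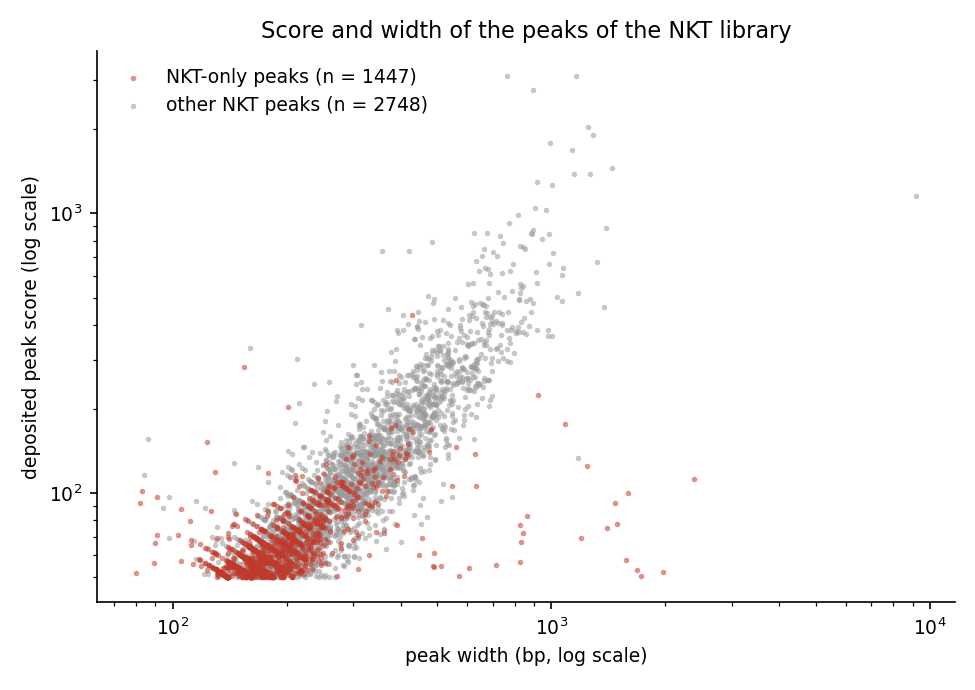
Each point is a peak of the NKT library outside the left-out regions, with its width in bp on the x axis and its deposited score on the y axis, both on log scales. The 1447 NKT-only peaks crowd at low scores and small widths, and a few of them stand off the main band, either wide with a low score or narrow with a high one.

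The 15 NKT-only peaks with the highest scores all scored 150 or more, and they were of mixed kind. The highest, 434.3 (rank 103 in the NKT list), lay inside the noncoding gene Gm34259 on chromosome 17 (4626212 to 4626639), 367.9 kb from Arid1b, the nearest protein-coding gene. The second, 282.1, was only 154 bp wide and lay inside the noncoding gene D130079A08Rik on chromosome 14 (104336949 to 104337102), 124.7 kb from Pou4f1. Both were more than 300 kb from any Tg thy peak, at 380.6 and 687.7 kb. Peaks of 202.6 on chromosome 11 (25100080 to 25100280) and 152.3 on chromosome 17 (53152468 to 53152590) also lay far from genes, 926.6 kb from Bcl11a and 173.3 kb from Kcnh8, and were 201 and 123 bp wide.

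The third score belonged to Thy1, which encodes a surface glycoprotein that marks T cells. Its peak scored 253.4 and was 388 bp wide, inside the gene on chromosome 9 (44046601 to 44046988), and a second NKT-only peak of 104.1 stood 0.561 kb further along. The nearest Tg thy peak scored 63.06 and lay 12.48 kb away. Sites further from the gene were listed in both libraries, one with 179.8 in the NKT list and 132.2 in the Tg thy list, and one with 58.95 and 54.68 in the NKT list and 426.9 in the Tg thy list. Ly6c2, a gene of the Ly6 family of lymphocyte and monocyte surface proteins, was the nearest gene of a wide peak (1087 bp, score 176.8) at 21.65 kb. On the X chromosome a 920 bp wide peak of 223.9 lay 3.587 kb from Mid1, which encodes a ubiquitin ligase of microtubules, and 2632 kb from the nearest Tg thy peak.

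Kinase genes followed among the highest scores. A peak of 175 lay inside Map3k1, which encodes a kinase upstream of JNK, on chromosome 13 (111807364 to 111807750), with a Tg thy peak of 105.4 at 10.42 kb. A peak of 165.2 lay inside Map4k5, a related kinase further upstream, on chromosome 12 (69863452 to 69863880), with a Tg thy peak of 139.7 only 3.458 kb away. Klhl42 (170.9, inside the gene), Osbpl1a (153.1, inside the gene on chromosome 18, 12795892 to 12796221) and Amz2 (169.6, 5.788 kb away) had Tg thy peaks 7.89, 13.49 and 11.9 kb from theirs. Rangap1, Tmco1 and N4bp2l2, whose promoters are printed above, complete the 15.

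By place, NKT-only peaks were spread much like the other peaks of both libraries. Within 1 kb of either end of an annotated gene were 361 of 1447 (24.95%, exact 95% interval 22.74 to 27.26%), against 27% of the other NKT peaks (25.35 to 28.7%) and 25.15% of the Tg thy peaks without an NKT peak (23.47 to 26.88%). Inside genes were a further 46.99% (44.4 to 49.6%), against 47.49% and 49.51%. Between genes were 28.06% (25.76 to 30.45%), against 25.51% and 25.34%. These intervals cover counting error only, since peaks of 1 library are not biological replicates, and all 3 shares overlap those of both comparison sets. Against the other NKT peaks below a score of 60, NKT-only peaks below 60 were at boundaries in 23.55% (20.7 to 26.59%) and 29.85% of the others were (26.04 to 33.89%). At 60 or above the shares were 26.82% of NKT-only peaks (23.36 to 30.49%) and 26.29% of the others (24.47 to 28.19%), and at 100 or above 28.3% (19.98 to 37.88%) and 24.93% (22.64 to 27.32%).

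Gene deserts held somewhat more of them. More than 100 kb from any protein-coding gene lay 137 NKT-only peaks (9.468%, exact 95% interval 8.008 to 11.09%), against 184 other NKT peaks (6.696%, 5.79 to 7.695%) and 136 Tg thy peaks without an NKT peak (5.352%, 4.509 to 6.3%). The intervals do not overlap, but no test of the difference was made. Within score classes the intervals did overlap. Among peaks scoring 60 or above the share was 9.208% of NKT-only peaks (7.049 to 11.77%) and 6.585% of other NKT peaks (5.585 to 7.703%). Below 60 it was 9.662% (7.736 to 11.88%) and 7.143% (5.128 to 9.635%). At 100 or above it was 12.26% (6.695 to 20.06%) and 6.637% (5.371 to 8.095%). The 3 members farthest from any protein-coding gene lay 1351 kb from D3Ertd751e on chromosome 3 (43154698 to 43154874), 1305 kb from Alcam on chromosome 16 (53758186 to 53758325) and 1254 kb from Amy2b on chromosome 3 (111893559 to 111893714). Their scores of 52, 50.02 and 51.71 were all near the floor of the list.

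**Figure D2:**
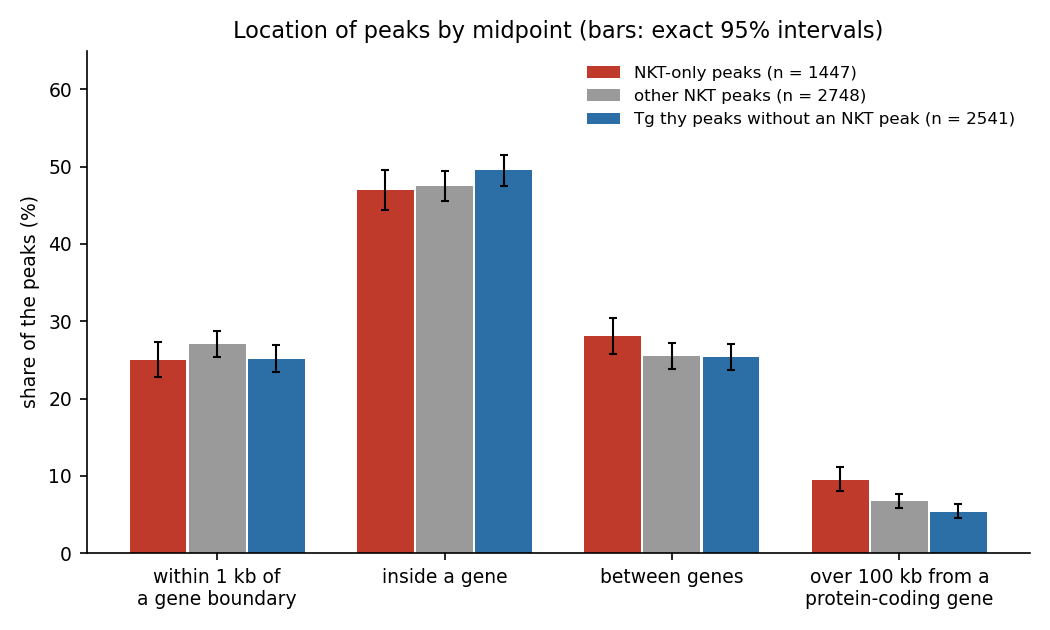
Bars give the share (%) of NKT-only peaks, other NKT peaks and Tg thy peaks without an NKT peak in each kind of place by their midpoint, with exact 95% intervals that cover counting error only. Shares near boundaries, inside genes and between genes overlap, and the share over 100 kb from a protein-coding gene is 9.468% in NKT-only peaks, 6.696% in other NKT peaks and 5.352% in Tg thy peaks without an NKT peak.

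Within 1 kb of a long noncoding RNA gene lay 220 NKT-only peaks (15.2%, exact 95% interval 13.39 to 17.16%) and 494 other NKT peaks (17.98%, 16.56 to 19.46%). For tRNA genes the counts were 10 (0.6911%) and 21 (0.7642%). Small nuclear RNA genes had 5 NKT-only peaks (0.3455%, 0.1123 to 0.8045%), 42 other NKT peaks (1.528%, 1.104 to 2.06%) and 3 Tg thy peaks without an NKT peak (0.1181%, 0.02435 to 0.3446%), so the share was low among the unshared peaks of both libraries. By chromosome, 13 of 28 NKT peaks on X were NKT-only (46.43%, 27.51 to 66.13%) and 1434 of 4167 on the autosomes (34.41%, 32.97 to 35.88%). The interval of X thus holds the autosome share. Single autosomes ran from 28.45% on chromosome 9 (22.74 to 34.72%) to 42.57% on chromosome 17 (35.66 to 49.71%).

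The gap from a member to the nearest Tg thy peak had a median of 75.11 kb (quartiles 17.45 to 274.8 kb). The rule itself requires a gap of more than 1 kb. Gaps were not measured for a comparison set, so they are given as a description. A Tg thy peak lay 1 to 10 kb away for 243 of them (16.79%), 10 to 100 kb away for 551 (38.08%) and further for 653 (45.13%). The members that only just met the rule, at Jagn1, at the noncoding gene Gm33699 and at Ints1, had Tg thy peaks 1007, 1024 and 1043 bases away and scores of 67.71, 65.35 and 58.84. Among the NKT peaks that only just failed it were the peaks at Galntl6 and Trappc9 and the peak 9.999 kb outside Baiap2. They had Tg thy peaks at 950, 940 and 940 bases and scores of 50.8, 51.16 and 52.22.

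Few members lay next to another. Alone within 10 kb were 1304 of the 1447, and the other 143 formed 64 groups, 57 of them pairs. The largest group held 9 peaks over 35.41 kb of chromosome 1 (88231358 to 88266770), across Mroh2a, which encodes a HEAT repeat protein, and Hjurp, which encodes the chaperone that loads the centromere histone. These peaks were 826 to 1725 bp wide and scored 50.38 to 125.2. The nearest Tg thy peak, 6.535 kb from the group, scored 113.3, and it and its neighbour of 171.5, which coincided with an NKT peak of 134.1, were wide as well. Groups of 4 lay inside Tmem267 on chromosome 13 (scores 57.25 to 137.7) and inside the noncoding gene 2700054A10Rik on chromosome 17 (50.65 to 67.99). Groups of 3 lay at Ahi1 (56.78 to 88.83) and Hmgb1 (51.41 to 88.27) and at a pair of places without an annotated gene, on chromosomes 12 and 16. Whether multi-copy DNA takes part in these groups was not tested.

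Of the 1447 members, 1310 could be assigned to a nearest protein-coding gene within 100 kb, and these made 1159 genes, 5.36% of the 21631 on chromosomes 1 to 19 and X. The shares were 4.36% of genes with a 10 kb limit and 4.90% when the gene body with 5 kb on both sides had to overlap a member. Any NKT peak outside the left-out regions was assigned to 11.8% of them. A single member belonged to 1024 genes, 2 to 126 genes and 3 or more to 9. The most belonged to Mroh2a with 7, Tmem267, Ahi1 and Hjurp with 4 each, and Apbb1ip with 3, which came first by summed score among the 3 genes with 3 members whose symbols are not of the Gm type. Ahi1 encodes a protein of cilia, and Apbb1ip the adaptor RIAM, which links Rap1 to integrin activation in T cells. Apbb1ip had a highest NKT-only score of 107.4 and also 1 other NKT peak (122.6) and 2 Tg thy peaks (highest 262.7). Ahi1 had 4 NKT-only peaks (highest 91.98), 1 other NKT peak (382.2) and 4 Tg thy peaks (highest 575.6).

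No Tg thy peak was assigned to 731 of the 1159 genes (63.07%, exact 95% interval 60.22 to 65.86%, and 3.38% of all protein-coding genes). These genes had no other NKT peak, which follows largely from the rule, since every other NKT peak has a Tg thy peak within 1 kb. The remaining 428 (36.93%) also had a Tg thy peak, at another place of the same gene or its surroundings. The share of all protein-coding genes with a Tg thy peak was not counted, so neither percentage has a baseline. The 1159 genes were also chosen through peaks that lack a Tg thy peak nearby. Among genes without a Tg thy peak, the highest NKT-only scores belonged to Mid1 (223.9), Rangap1 (169.7), Tmco1 (160.6), N4bp2l2 (150.1) and Dhx8 (148.2). Next were Adamts10 (146.4 at 39.39 kb), Vmn1r77 (146 at 30.67 kb), Smok2a (145.1 at 14.57 kb), Tspan32 (141.3) and Tbc1d16 (140.9), the last pair with the peak inside the gene. Tspan32 encodes a tetraspanin of blood cells that restrains T cell proliferation, and Vmn1r77 a vomeronasal receptor with no known role in thymocytes.

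Sh2d1a, which encodes the SAP adaptor that natural killer T cells need, had 1 NKT-only peak and no Tg thy peak. The peak scored 136.5 (rank 941), was 395 bp wide and lay across the start coordinate of the gene on the X chromosome (42502405 to 42502799, gene from 42502565). The nearest Tg thy peak on that chromosome was 5634 kb away, and the Tg thy list had 23 peaks on X in all. None of the other 11 genes in the list of SLAM receptors and SAP adaptors had an NKT-only peak, and the list's 1 of 12 (8.333%) stands beside 5.36% of all genes. Cd1d1, which encodes the molecule that presents lipids to these cells, had an NKT-only peak of 105.5 at 34.46 kb on chromosome 3 (86961206 to 86961544). Inside Cd1d1 both libraries had a site, with a peak of 87.45 in the NKT list and 2 peaks of up to 69.14 in the Tg thy list.

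**Figure D3:**
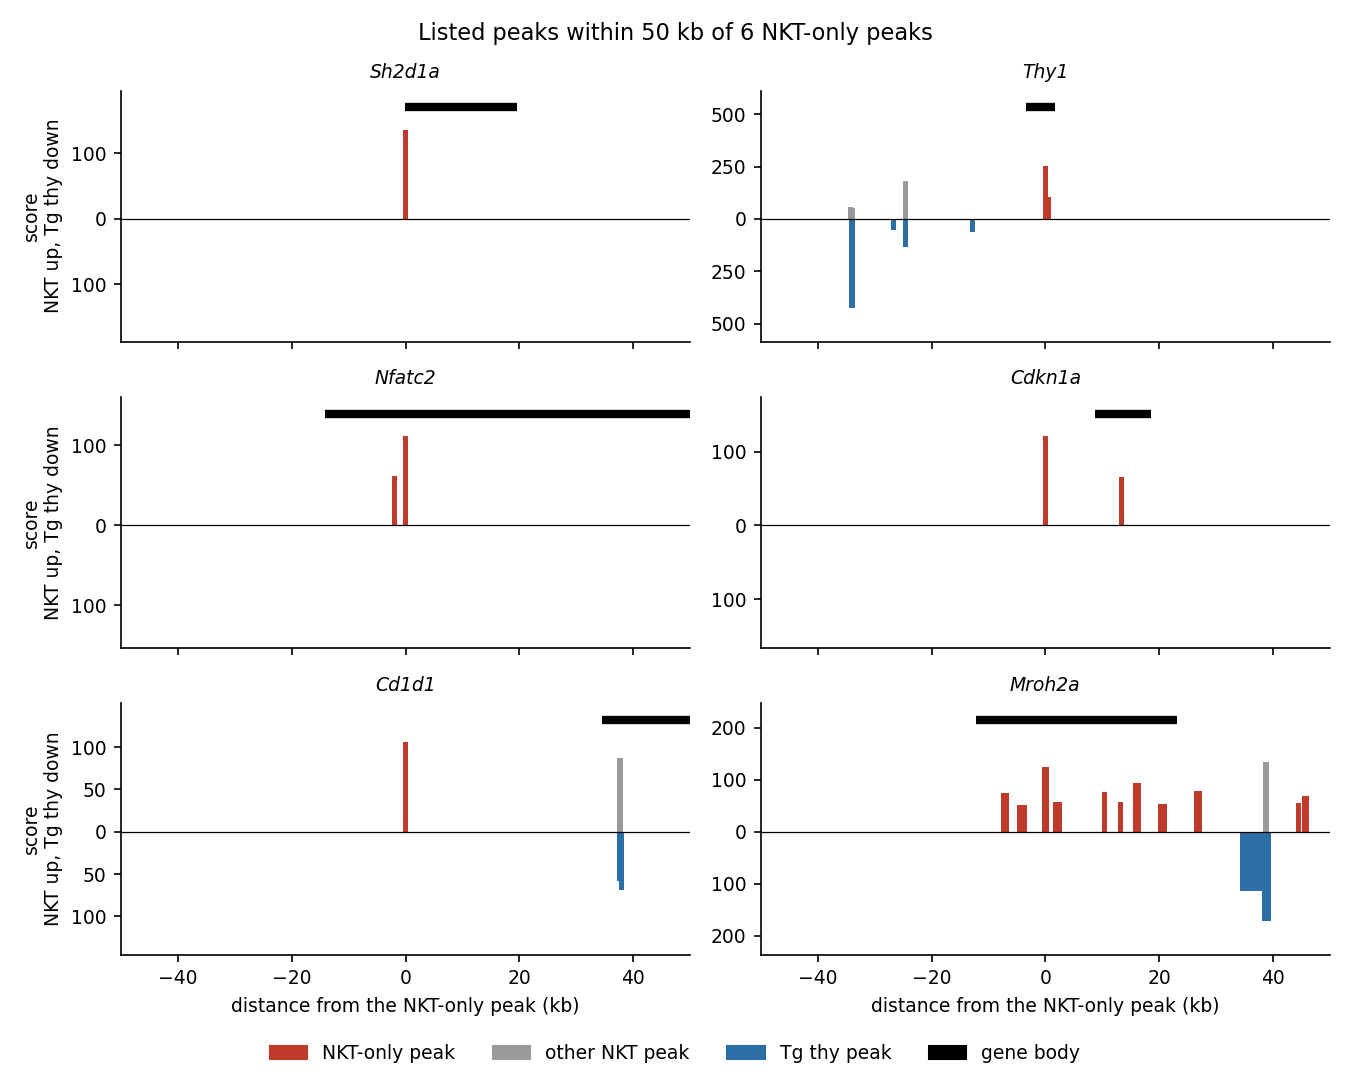
Peaks of both libraries within 50 kb of the highest NKT-only peak of 6 genes, with the distance in kb on the x axis, NKT scores upward and Tg thy scores downward (narrow peaks are drawn wider than scale so that they can be seen, and gene bodies are cut at 50 kb). No Tg thy peak is listed in the panels of Sh2d1a, Nfatc2 and Cdkn1a, both libraries have sites near Thy1 and Cd1d1, and the Mroh2a panel holds a run of wide peaks.

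Genes of T cell receptor signalling held NKT-only peaks at 11 of 42 (26.19%, beside 5.36% of all protein-coding genes), and 31 of the 42 had some NKT peak and 35 a Tg thy peak. The count was 7 with a 10 kb limit and 8 for gene bodies with 5 kb on both sides. Apart from Sh2d1a, the other 10 also had a Tg thy peak, whose highest score was above that of the NKT-only peak in each. Cd3e, a chain of the CD3 complex, had its NKT-only peak of 96.46 at 13.34 kb on chromosome 9 (45022893 to 45023121), beside 1 other NKT peak of 53.9 and 3 Tg thy peaks of up to 203.4. Lcp2, which encodes the adaptor SLP-76, had one of 71.09 at 1.195 kb, beside 3 other NKT peaks of up to 290.1 and 5 Tg thy peaks of up to 298.8. Csk, the kinase that restrains LCK, had one of 58.19 inside the gene, beside 3 other NKT peaks of up to 404.2 and 3 Tg thy peaks of up to 477.9. Across all genes with an NKT peak, 45.3% had an NKT-only peak, and in this list 11 of 31 had.

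Transcription factors of the T lineage held NKT-only peaks at 14 of 48 (29.17%, beside 5.36% of all protein-coding genes), with 11 of these genes also holding a Tg thy peak. Some NKT peak was held by 29 of the 48, so 14 of 29 stands beside the 45.3% over all genes with an NKT peak. Nfatc2, a calcium-dependent factor downstream of the T cell receptor, had none in the Tg thy list and a pair in the NKT list. They scored 111.7 and 61.85 and lay inside the gene on chromosome 2 (168490414 to 168490803 and 168488645 to 168488771), with the nearest Tg thy peak 251.8 kb from the stronger one. Klf2, which governs exit from the thymus, had a single NKT-only peak of 81.24 that lay 0.268 kb outside the gene on chromosome 8 (72321827 to 72322018), 42.15 kb from a Tg thy peak of 271.7. Runx1 and Bcl11b, which specify and hold T cell identity, had NKT-only peaks of 86.64 and 86.44 inside genes that also had Tg thy peaks, 11 for Runx1 (highest 356.4) and 4 for Bcl11b (highest 242.9). Hivep3, a large zinc finger factor, had one of 69.39 beside Tg thy peaks of up to 252.9. The third factor gene without a Tg thy peak, Egr1 (57.2 at 4.85 kb), was named after its value was seen.

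Effector genes held NKT-only peaks at 5 of 40 (12.5%, beside 5.36% of all genes), or 5 of the 11 with some NKT peak, and these were 4 receptor genes and the death ligand gene Fasl. The count was 3 with a 10 kb limit and 2 for gene bodies with 5 kb on both sides. Ifngr1, a chain of the interferon gamma receptor, had the highest, 122.6 at 13.75 kb on chromosome 10 (19578031 to 19578372), beside 3 other NKT peaks of up to 182.5 and 6 Tg thy peaks of up to 328. Il2ra (67.12, inside the gene), Il4ra (58.86, 0.789 kb outside it), Fasl (53.81, 92.95 kb away) and Ifngr2 (53.55, 8.414 kb away) scored lower, and all 5 genes had a Tg thy peak. Of the migration and adhesion genes only Klf2 had an NKT-only peak, 1 of 30 (3.333%), although 17 of the 30 had some NKT peak. Survival and apoptosis genes had 4 of 31 (12.9%), or 4 of the 11 with some NKT peak. The scores were 61.45 for Fas, 56.23 for Bcl2l11, which encodes the death inducer BIM, 55.14 for Traf1 and 50.2 for Bcl2l1. All 4 had a Tg thy peak.

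Cell cycle genes had 3 of 30 (10%, beside 5.36% of all protein-coding genes), and 2 of them had no Tg thy peak. Some NKT peak was held by 7 of the 30, so 3 of 7 stands beside the 45.3% over all genes with an NKT peak. Cdkn1a, which encodes the cell cycle inhibitor p21, had NKT-only peaks of 121.2 on chromosome 17 (29082022 to 29082347), 8.795 kb outside the gene, and of 65.98 inside it (29095550 to 29095724), with the nearest Tg thy peak 111.2 kb from the first. Rbl2, which encodes the pocket protein p130 of resting cells, had one of 107.5 inside the gene on chromosome 8 (91077462 to 91077756), 121.9 kb from a Tg thy peak. Ccnd3, the cyclin of dividing thymocytes, stood in contrast, with NKT-only peaks of 63 and 50.35 beside 6 other NKT peaks of up to 321.3 and 11 Tg thy peaks of up to 1216. Of PLZF partners and co-repressor genes, 3 of 29 (10.34%) had an NKT-only peak, or 3 of the 9 with some NKT peak. They were Rcor1 (81.52), Zbtb16 itself (58.83) and Sin3a (52.02), the last without a Tg thy peak.

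**Figure D4:**
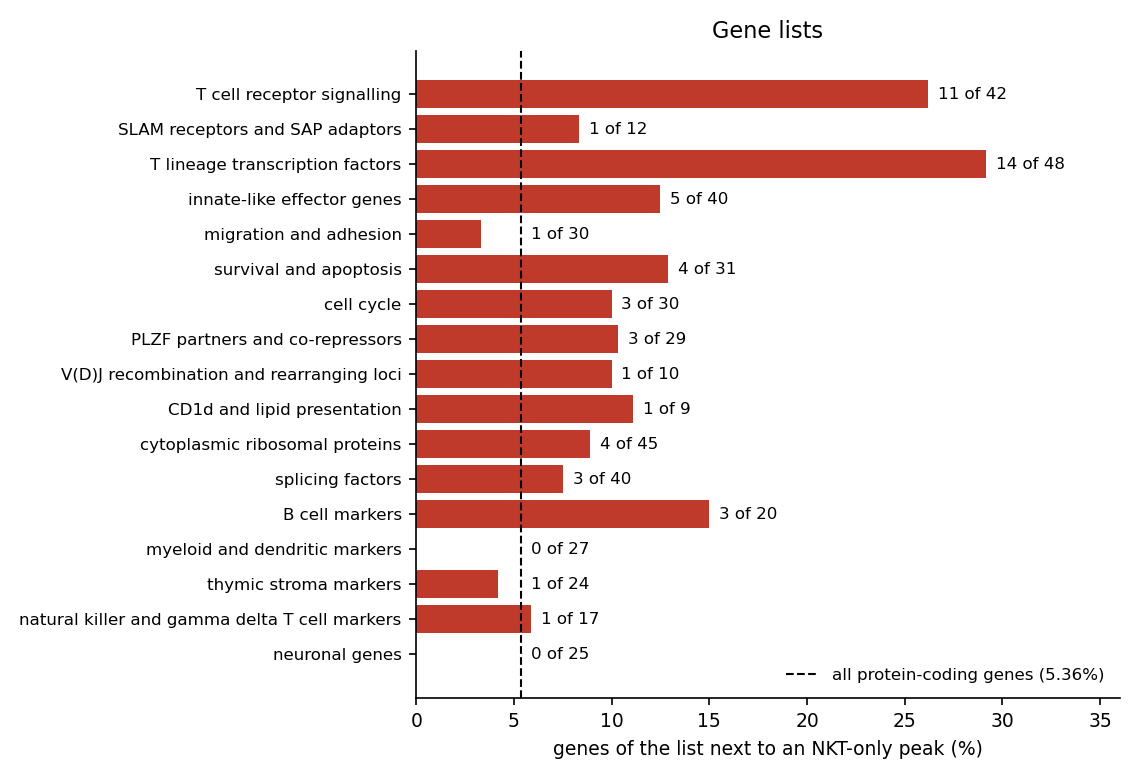
Bars give, for every list but that of the transgene loci, the percentage of genes that are the nearest gene within 100 kb of an NKT-only peak, with the counts beside them, and the dashed line marks the 5.36% of all protein-coding genes. T lineage transcription factors (14 of 48) and T cell receptor signalling genes (11 of 42) have the longest bars of those drawn. No myeloid or neuronal gene has an NKT-only peak, but only 2 myeloid genes and no neuronal gene have any NKT peak.

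Lists for other cell types and for genes active in all cells were read the same way. Across all protein-coding genes 5.36% held an NKT-only peak, and 45.3% of those with some NKT peak did. B cell marker genes held NKT-only peaks at 3 of 20 (15%), or 3 of the 4 with some NKT peak. They were Cd74 (62.79 at 10.67 kb), Pou2af1 (54.8, across the gene's start coordinate) and Blk (50.2, inside the gene). None of the 3 had a Tg thy peak, and Pou2af1 and Blk scored near the floor. Natural killer and gamma delta T cell markers had 1 of 17, again Blk, or 1 of the 4 with some NKT peak. Thymic stroma markers had 1 of 24 (Epcam, 52.05 at 64.99 kb), the only 1 of them with some NKT peak. Myeloid and dendritic markers had 0 of 27, or 0 of the 2 with some NKT peak. Neuronal genes had 0 of 25, and none of them had any NKT peak. A peak next to a marker gene says nothing of that gene's expression, and the part of other cells in these peaks was not tested. Ribosomal protein genes had 4 of 45 (8.889%), or 4 of the 13 with some NKT peak: Rpl11 (59.78), Rps14 (53.63), Rpl12 (53.46) and Rpl23 (51.1). Splicing factor genes had 3 of 40 (7.5%), or 3 of the 11 with some NKT peak: Rbm39 (57.63), Sf1 (54.17) and Ddx5 (50.5). Recombination genes had 1 of 10, Dntt (52.59 at 13.16 kb), or 1 of the 5 with some NKT peak. Genes of CD1d and lipid presentation had 1 of 9, Cd1d1, or 1 of the 3 with some NKT peak.

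Of 5 protein-coding genes whose sequence the transgenes may carry, Zbtb16 and Cd8a were nearest to an NKT-only peak (2 of 5, 40%, beside 5.36% of all genes), and all 5 had some NKT peak and a Tg thy peak. In the span of Tcra, whose Valpha14 segment is the added transgene, 1 NKT-only peak of 52.05 lay over the olfactory receptor gene Olfr1509 at the far end of the locus, beside 9 other NKT peaks of up to 169.2 and 10 Tg thy peaks of up to 243.6. No peak of either list touched the Trav11 or Traj18 segments. Zbtb16 held 1 NKT-only peak on chromosome 9 (48717213 to 48717458, score 58.83) beside 6 other NKT peaks of up to 462.8 and 6 Tg thy peaks of up to 572.3. Cd8a had an NKT-only peak of 58.09 at 12.43 kb, beside 2 other NKT peaks of up to 445.8 and 3 Tg thy peaks of up to 847.4. Cd4, Cd2, Lck and Tcrb held none.

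Of 1405 NKT-only peaks outside chromosome 18, 162 overlapped a promoter window (11.53%, exact 95% interval 9.906 to 13.32%), and of 2688 other NKT peaks 297 did so (11.05%, 9.888 to 12.3%). Among promoter windows under NKT-only peaks, the ETS letters were common. CCGGAAG, a core of ETS factor sites, was found on either strand in 60 of 198 windows (30.3%, exact 95% interval 23.99 to 37.22%), in 97 of 358 windows under other NKT peaks (27.09%, 22.56 to 32.02%) and in 8.855% of all 32817 windows. GGGCGG, bound by SP and KLF factors, was in 51.52% (44.32 to 58.66%), 42.18% (37.01 to 47.48%) and 35.63% of the same sets. The windows under peaks were also richer in G and C, with a median of 57.67% under NKT-only peaks, 56.33% under other NKT peaks and 52.67% in all windows, and in CG pairs, with medians of 19, 17 and 7. The part of base composition in these shares was not tested. Windows of neighbouring genes can overlap and share letters, and a match is not shown to be a bound site.

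The E protein letters ran the other way. CAGCTG was in 20 of 198 windows under NKT-only peaks (10.1%, exact 95% interval 6.28 to 15.17%), in 69 of 358 under other NKT peaks (19.27%, 15.32 to 23.75%) and in 16.31% of all windows. For windows that lay within 500 bp of an NKT-only midpoint the share was 13.7% (9.97 to 18.18%). That interval overlaps that of the other NKT peaks, but their windows were not widened, so the sides are defined differently. TGTGGT, the RUNX letters, stood at 15.66%, 15.92% and 16.76%. CTTTGAT of TCF1 and LEF1 stood at 4.04%, 6.145% and 3.73%, AGATAA of GATA factors at 5.556%, 8.659% and 11.18%, TGANTCA of AP-1 at 5.051%, 4.19% and 7.813%, and GGGANTTCC of NF-kB at 0.5051%, 2.235% and 1.676%. No motif contains another, and none of these differences between NKT-only and other NKT peaks was tested.

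**Figure D5:**
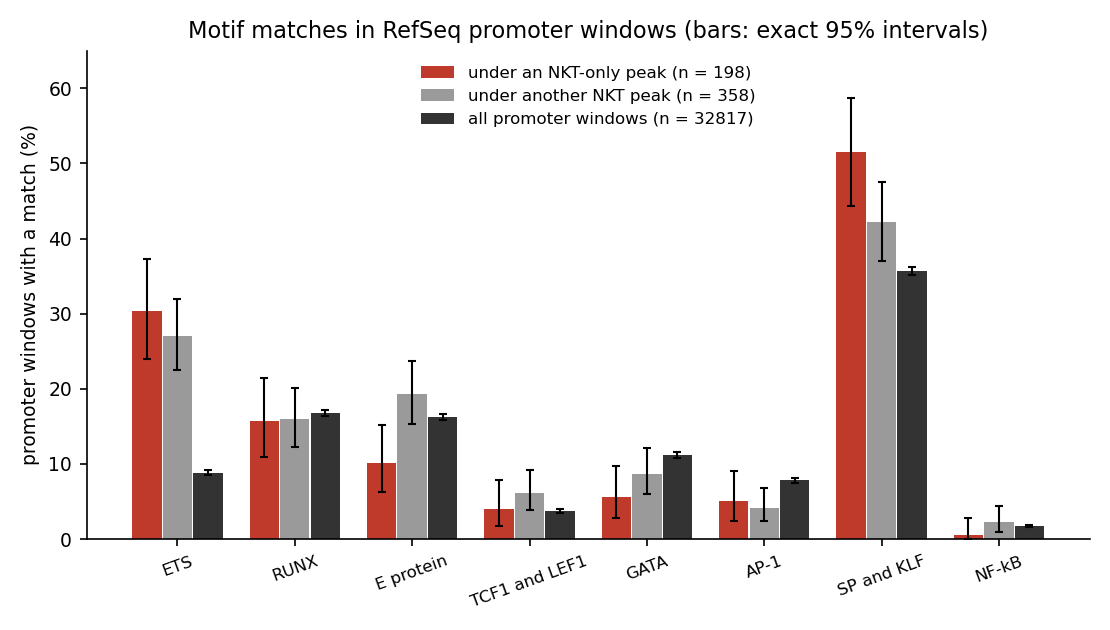
Bars give the share (%) of RefSeq promoter windows with at least 1 match to each factor's letters on either strand, for windows under NKT-only peaks (n = 198), under other NKT peaks (n = 358) and all windows (n = 32817), with exact 95% intervals. The ETS share is 30.3% under NKT-only peaks, 27.09% under other NKT peaks and 8.855% in all windows. The E protein share is lower under NKT-only peaks (10.1%) than under other NKT peaks (19.27%). With windows widened for NKT-only peaks alone it is 13.7%, with an interval that overlaps that of the other NKT peaks.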

How the data were processed

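For each ChIP sample the authors deposited a headerless peak list, whose last column is a score with no stated scale and the peak names begin with MACS. Bowtie, Picard, HOMER and the mm10 build are named in the submitters' processing notes, without versions, and the control for peak calling and any pooling are not stated there. Coordinates are 1-based, with 1 added to each deposited start. Membership was computed in Python 3.11.15 (pandas 2.3.3) and gave the same count with bedtools 2.31.1, and the steps were tested on simulated intervals. Gene spans and biotypes came from the RefSeq gene table of GRCm38.p6, which has no strand, so boundaries mean either end of a gene. Promoter windows with strand came from RefSeq (17274 of 21631 protein-coding genes, with no window on chromosome 18). Each peak's midpoint was given its closest protein-coding gene up to 100 kb away, and a midpoint in several genes was given the one whose end was nearest. Intervals of shares are exact (Clopper-Pearson, 95%) and cover counting error only. With 1 library per group there was no test. The rule left out chromosomes M and Y, chromosome 11 from 3000000 to 3300000, chromosome 2 from 98000000 to 99000000, chromosome 17 from 39000000 to 40000000, and chromosome 9 from 35000000 to 36000000 and from 3000000 to 3100000.

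The members and the 18 gene lists (482 symbols, 471 protein-coding genes matched) were chosen with earlier results of these data known. Named by rule were the 15 highest-scoring members, up to 5 genes per list, the 5 genes with the most members, the 10 highest-scoring genes without a Tg thy peak, the transgene loci, 5 promoters, the 3 members farthest from genes and those at the edge of the rule. A gene that the rule names is not reported here. Symbols of Gm, Rik, LOC or Olfr type were passed over except among single peaks.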

Additional observations from a re-analysis of the deposited data

How the results depend on the processing

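The number of NKT-only peaks was 1447, and it stayed within 1.5 times that count with direct overlap (1632), 5 kb (1309), no region left out (1475) and the top 50% of the Tg thy list by score (2096). With the top 50% of the NKT list by score it was 275, and the genes next to a member numbered 231 instead of 1159. That setting drops the low scores where most members lie. The share at a gene boundary, 24.95%, was 27.64% with the top 50% of the NKT list, 36.21% with a 2.5 kb window, 18.87% with protein-coding genes only and 18.58% with transcription start sites. The share inside genes, 46.99%, was 38.84%, 41.95% and 50.04% under the last 3 settings, and the share between genes, 28.06%, was 24.95%, 39.18% and 31.39%. The setting with transcription start sites counted only the 1405 members outside chromosome 18, which has no promoter windows. The median score of 57.3 was 60.02 and the median width of 174 bp was 182 bp with the top 50% of the Tg thy list. The share of members over 100 kb from a Tg thy peak, 45.13%, was 40.01% with direct overlap, 49.89% with 5 kb and 40.36% with the top 50% of the NKT list. The alternatives for score, width, spacing and gene deserts were chosen after seeing the data. The share over 100 kb from a protein-coding gene, 9.468%, ran from 8.063 to 10.91%. Of 36 list counts with a 10 kb limit or gene bodies with 5 kb, 16 were lower and 2 higher, and Cd1d1, Dntt and Epcam then had no member. Cd8a, assigned at 12.43 kb, dropped out under both too. The motif shares stayed within their intervals with the widened promoter windows. No replicate could be left out and no paired analysis was possible because each group has 1 library.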
